A study of Mus musculus with 12 samples.

Results

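The comparison described here is the effect of Larp1 knockdown on the RNA pulled down with neuronal ribosomes. Its members are the genes with 100 or more counts summed over the 6 immunoprecipitate (IP) columns, 8209 of the 15391 genes in the deposited table. They hold 98.4% of the IP counts with either virus. The 390 genes just under this limit (90 to 99 counts) had a median log2 ratio of -0.05 (quartiles -0.48 and 0.37), and the 413 just above it (100 to 110 counts) one of -0.03 (quartiles -0.40 and 0.37).

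The cells were cultured adult mouse dorsal root ganglion neurons, the sensory neurons whose axons run in peripheral nerves. All groups shared the genotype RPL22HA+/+;Advillin-Cre+, in which Cre driven by the sensory neuron gene Advillin switches on an HA tag on the ribosomal protein Rpl22, so that an antibody against HA recovers ribosomes of these neurons with the RNA bound to them. All groups were also labelled preconditioned, meaning that the sciatic nerve of the mice had been injured before the culture to start a growth program. The groups differed in the virus: AAV-Control or AAV-shLarp1, adeno-associated viruses of which the second carries a short hairpin RNA against Larp1. The titles name the control AAV-Control for IP and AAV-shControl for input; both were taken as the control virus, and whether it carries a hairpin is not clear from the labels. There were 3 IP columns per virus, and input columns of the same groups serve below only as another readout. The age, sex and number of the mice, the time after infection and the hairpin's target site are not given in the labels. The protocol for RNA extraction names freshly dissected ganglia, but the source given for each sample is cultured neurons.

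Larp1 is an RNA-binding protein that holds the cap and the first bases of mRNAs with a terminal oligopyrimidine (TOP) tract, an unbroken run of C and T that starts with a C at the very start of the transcript. TOP mRNAs encode the ribosomal proteins, translation elongation factors and poly(A)-binding protein. When the growth kinase complex mTORC1 is inactive, Larp1 keeps TOP mRNAs off ribosomes and protects them from decay, and mTORC1 phosphorylates Larp1 and relieves the block. In injured sensory neurons mTORC1 activity and local protein synthesis are known to take part in axon regrowth.

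The tract is shown first, because it is the feature by which Larp1 knows its mRNAs. Each window of 30 bases comes from RefSeq (build GRCm38.p6) and runs 5′ to 3′ on the strand of the gene, from 10 bases before the annotated start to 20 bases from it on. Capitals mark the longest unbroken run of C and T that begins with C within 10 bases of that start. The first 6 mRNAs are TOP mRNAs with long runs, Rps12 is the small-subunit mRNA with the lowest ratio reported below, and Larp1 is the targeted gene.
Rpl27a: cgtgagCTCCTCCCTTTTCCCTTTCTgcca
Rpl35: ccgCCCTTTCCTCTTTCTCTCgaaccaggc
Rack1: gccgCTCTTTCTTTTTCTCCacagggtcgt
Fau: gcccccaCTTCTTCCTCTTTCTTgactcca
Eif3f: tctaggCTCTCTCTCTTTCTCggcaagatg
Rps18: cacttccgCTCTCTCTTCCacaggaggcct
Rps12: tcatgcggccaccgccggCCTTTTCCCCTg
Larp1: aggcgcgccggagCCTTCTgcccggcgcgc
The runs are 20 bases long in Rpl27a, 18 in Rpl35, 16 in Rack1 and Fau, 15 in Eif3f, 11 in Rps18 and Rps12, and 6 in Larp1. The windows lie at chr7:109519185-109519214 on the plus strand (Rpl27a), chr2:39005112-39005141 on the minus strand (Rpl35), chr11:48800350-48800379 plus (Rack1), chr19:6057937-6057966 plus (Fau), chr7:108934405-108934434 plus (Eif3f), chr17:33955646-33955675 minus (Rps18), chr10:23787190-23787219 minus (Rps12) and chr11:58009054-58009083 plus (Larp1). An annotated start may differ from the start these neurons use.

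IP columns held 3126591 to 3128368 counts with the control virus and 3176458 to 3177552 with shLarp1. The 3 columns of a virus differed by about what random division of 1 library gives: the median chi-square per gene was 1.48 and 1.46, against 1.39 from sampling noise alone, and the totals varied less than noise would make them (SD 910 and 566 against 1770 and 1780). No separate cultures or animals are named for them. They were therefore summed and counted as 1 sample per virus, so the comparison has no replicate check and no p-value is given for any gene. Each log2 ratio, shLarp1 over control, is of summed counts scaled by TMM within the 6 columns, with an exact 95% interval that covers counting error only. A call, in either direction, required all of the interval to be past 1.5-fold, and "rose" and "fell" below mean such a call.

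By that rule 53 genes were higher (0.646% of the 8209) and 217 were lower (2.64%) with shLarp1, 270 in all (3.29%). The median log2 ratio over all members was -0.01, with quartiles of -0.30 and 0.20, and 43.1% of members lay within 0.2 of 0. With scaling by total counts the calls were 72 higher and 154 lower, and with upper-quartile scaling 72 and 151, since both move the median of all genes up by 0.06. The columns of one virus lay wholly above or below those of the other for 47 of the higher and 215 of the lower genes, against 20.3% of all members wholly above, 24.4% wholly below and 44.7% in all, shares that go with how little the columns of 1 virus differ.

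Larp1, the targeted gene, fell. Its counts were 147, 141 and 154 in the control IP columns and 55, 49 and 45 in the shLarp1 columns. All 3 shLarp1 columns lay far below all 3 control columns, and the level was 3.14-fold lower (log2 -1.65, 95% interval -1.93 to -1.38). The lower level was measured in ribosome-bound RNA, where 149 counts remained. Among 6 members that carry the La domain, only Larp1 was called. Larp1b, its closest relative, had 20, 25 and 22 counts in the control and 11, 10 and 12 in the shLarp1 columns (log2 -1.10, -1.75 to -0.48). These columns do not overlap, but the interval reaches less than 1.5-fold, and whether reads of the 2 relatives were told apart by the counting is not given in the sources used here. Larp4, which binds poly(A), had a log2 ratio of 0.47 (0.02 to 0.94), Larp4b -0.05, Larp7, which binds the 7SK RNA, -0.44, and Ssb, the La protein itself, -0.36. Rpl22, the gene that carries the tag, gave 2075, 2040 and 2022 against 2029, 2029 and 1981 counts (log2 -0.11, -0.16 to -0.05).

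**Figure D1:**
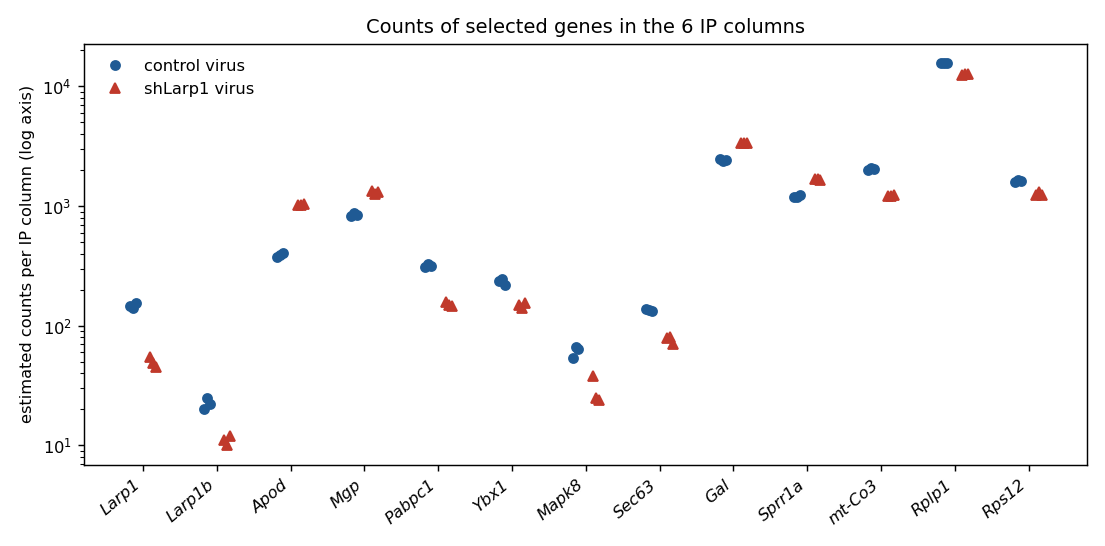
Counts of 13 genes in each of the 3 control (AAV-Control) and 3 shLarp1 IP columns, on a log axis, 1 point per column, not scaled to depth. Larp1 drops from 141 to 154 counts to 45 to 55, Apod rises from 378 to 407 to 1025 to 1040, and the columns of 1 virus lie close together.

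The ribosomal protein mRNAs, the core TOP mRNAs, differed little between the viruses, and most had slightly lower values with shLarp1. All 82 were members and none was called in either direction. Together they made up 20.92% of all IP counts with the control virus (95% interval 20.89 to 20.94, exact binomial) and 20.52% with shLarp1 (20.49 to 20.54). The columns ran from 20.91 to 20.93% and from 20.49 to 20.54%, so the groups do not overlap, and the gap is 0.4 percentage points in a library where Larp1 itself was 3.14-fold lower.

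Small-subunit mRNAs lay a little lower as a list than large-subunit mRNAs. The 33 small-subunit mRNAs had a median log2 ratio of -0.10 (range -0.44 to 0.02), with 32 of 33 below 0 and 27 with an interval wholly below 0. The 49 large-subunit mRNAs had a median of -0.07 (range -0.39 to 0.20), with 37 below 0, 30 with an interval wholly below 0 and 7 with one wholly above it. Over all members 24.4% had an interval wholly below 0 and 20.1% one wholly above. The share of counts was 8.09% against 7.81% for the small subunit and 12.83% against 12.71% for the large. Both medians stay below 0 under total-count, upper-quartile and DESeq2 scaling, but with total counts only 24 of 33 and 26 of 49 lie below 0.

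Rplp1, an acidic stalk protein of the large subunit, had the lowest ratio of its list. It gave 15655, 15655 and 15553 counts in the control and 12516, 12609 and 12775 in the shLarp1 columns (log2 -0.39, -0.41 to -0.37). The columns are far apart, and the difference is 1.31-fold. Rps12, in the small subunit, gave 1581, 1646 and 1613 against 1238, 1316 and 1229 counts (log2 -0.44, -0.50 to -0.38), and Rps19 gave 17410, 17447 and 17532 against 14883, 15141 and 15042 (log2 -0.30, -0.32 to -0.28). Rps12 was in the low class by IP to input, defined below (log2 IP to input -3.50), where ratios were lower in general. The 29 small-subunit mRNAs recovered in both IP and input kept a median of -0.10, and the 46 large-subunit ones had -0.07. Both medians lay below the lower quartile of all 567 recovered members with 3000 or more counts (median 0.08, quartiles -0.001 and 0.15). The most abundant ribosomal protein mRNAs by counts stayed close to 0 or slightly below: Rpl38 at 0.02, Rpl35 at 0.00 (log2 -0.001) and Rps29 at -0.08. Reads of ribosomal protein mRNAs can be split with their many processed pseudogenes, and how the counting treated them is not given in the sources used here.

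The other TOP mRNAs gave 1 call. Of 31 mRNAs for elongation factors and other known TOP products, Pabpc1 fell and 30 were not called, with a median of -0.03 that turns to 0.03 with total counts or upper-quartile scaling. Pabpc1 encodes the cytoplasmic poly(A)-binding protein, which coats mRNA tails and is itself made from a TOP mRNA. It gave 308, 328 and 313 counts in the control and 158, 149 and 147 in the shLarp1 columns, a 2.21-fold lower level (log2 -1.15, -1.31 to -0.98). The elongation factors were near 0: Eef1a1, which delivers aminoacyl-tRNA, at -0.03 (-0.08 to 0.01), Eef2, the translocase, at 0.01 (-0.07 to 0.08), and Eef1b2 at -0.10. Rack1, a scaffold on the small subunit, was at -0.04 and Tpt1 at 0.07.

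**Figure D2:**
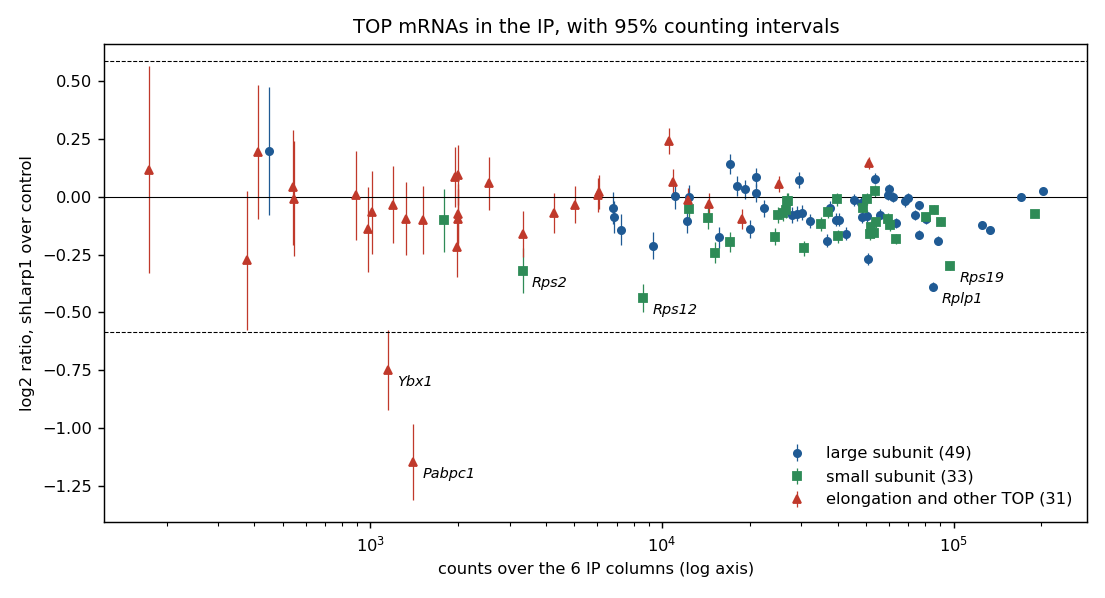
Log2 ratio (shLarp1 over control) of each TOP mRNA against its counts over the 6 IP columns on a log axis, with 95% counting intervals, colored by list. Pabpc1 at -1.15 stands apart, and the ribosomal protein mRNAs run from -0.44 to 0.20.

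Medians lay close together whatever the length of the run at the annotated start. Of the 5963 members with a window, 506 (8.49%) had a run of 8 or more bases, compared with 8.03% of all 27025 genes in the RefSeq table, and none of the 506 was higher and 9 were lower (1.78%, against 1.66% of members with runs under 5 bases and 2.64% of all members). Their median was 0.00 (log2 -0.001), next to 0.02 for the 4037 members with runs under 5 bases and 0.04 (log2 0.035) for the 1420 with runs of 5 to 7. Among ribosomal protein mRNAs with a window, 22 had a run of 8 or more and a median of -0.07, 12 had 5 to 7 and -0.11, and 27 had under 5 and -0.09. Rpl27a, with the longest run shown above, had a log2 ratio of -0.08, Fau 0.02, Eif3f -0.14 and Rps18 -0.17. Many ribosomal protein mRNAs have an annotated start that does not show the tract, so the classes are by annotation and not by measured starts.

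Non-coding hosts of small nucleolar RNAs, several of which are also known TOP transcripts, lay lower. None of the 13 members was called, the median was -0.33, and 9 intervals lay wholly below 0. Zfas1 gave 9833 counts in the control and 7542 in the shLarp1 sum (log2 -0.47), whereas Gas5 gave 13812 and 13772 (log2 -0.09). None of the 13 was recovered in both IP and input by the measure used below, and genes outside that class had lower ratios in general.

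Among proteins that bind mRNA next to Pabpc1, values went both ways. Ybx1, a Y-box protein that packages mRNA, gave 237, 248 and 221 counts in the control and 149, 142 and 154 in the shLarp1 columns (log2 -0.75, -0.92 to -0.58). Its columns are far apart, and the interval ends just short of 1.5-fold. Paip2b, which holds poly(A)-binding protein off its partners, was at -0.53 (-0.67 to -0.39) and its relative Paip2 at 0.26 (0.17 to 0.34). Over the 12 mRNAs of this list the median was -0.05, with Pabpc1 the single call.

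The machinery of initiation and its control did not follow Pabpc1. Of 31 initiation factor mRNAs none was called, the median was 0.04 and the range -0.32 to 0.44. Of 27 members of the mTOR pathway, none fell and 20 lay above the median of all genes (pathway median 0.15). Deptor and Mlst8, a brake on mTOR and a subunit of its complexes, were at 0.92 (0.37 to 1.49) and 0.86 (0.34 to 1.39) without a call, from 42 and 48 control counts. RNA granule and localization proteins had a median of 0.20 over 31 members with no call. G3bp2, a stress granule core protein, gave 108, 98 and 104 against 172, 186 and 182 counts (log2 0.72, 0.51 to 0.92). Tia1, another stress granule protein, was at -0.90 (-1.33 to -0.47) and in the low class by IP to input, defined below. None of 34 decay factors was called (median -0.01), nor any of 62 splicing factors (median -0.03) or 29 tRNA synthetases (median 0.07).

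Ribosome assembly factors had 4 calls among 54 members, where 3.29% of all members were called, and a median of -0.01. Wdr43, of the early small-subunit processome, fell (106 to 44 counts, log2 -1.35), as did Rrp15, of the large subunit (373 to 215, log2 -0.88). Wdr12, which acts in large-subunit processing, also fell (166 to 79, log2 -1.15). Wdr12 was in the low class by IP to input, defined below (log2 IP to input -10.27). Pwp1, a WD-repeat protein linked to ribosomal RNA synthesis, rose: 47, 56 and 64 counts in the control and 124, 123 and 122 in the shLarp1 columns (log2 1.06, 0.79 to 1.33). The other 50 were not called.

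Apod was the single gene of 1000 or more counts that rose. It encodes apolipoprotein D, a secreted carrier of lipids known from glia and fibroblasts. The control columns had 378, 387 and 407 counts and the shLarp1 columns 1025, 1028 and 1040. The groups do not overlap, and the level was 2.49-fold higher (log2 1.32, 1.22 to 1.42). Apod was in the list of fibroblast markers, whose summed level was 1297 to 1340 CPM (counts scaled to library size) in the control and 1560 to 1605 in the shLarp1 columns. Without Apod the range was 1172 to 1211 against 1237 to 1284, and none of the 19 other fibroblast members was called. Mgp, matrix Gla protein of the same list, gave 831, 868 and 838 against 1328, 1265 and 1300 counts (log2 0.54, 0.46 to 0.61), while Sparc was at -0.22. The glial markers summed to 952 to 957 against 952 to 955 CPM. More cells of a type and more RNA per cell cannot be told apart in such samples.

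The remaining higher genes were mostly shallow: 46 of the 53 had fewer than 300 counts. Ranbp10, a Ran-binding protein, had the highest ratio of the higher genes that have a standard symbol and columns that do not overlap, with 8, 8 and 8 counts in the control and 20, 32 and 38 in the shLarp1 columns (log2 1.82, 1.16 to 2.54). Baiap2 (IRSp53), an actin adaptor of protrusions, gave 6, 10 and 11 against 33, 35 and 25 (log2 1.70). Usp48, a deubiquitinase, gave 28 and 92 counts in sum (log2 1.63). Others with called rises were Rcor1, the CoREST corepressor, at 1.58 (0.90 to 2.31), Bptf, a subunit of the NURF remodeler, at 1.38 (0.79 to 2.00), and Prdm2, a methyltransferase, at 1.23 (0.75 to 1.72). Trf, transferrin, gave 20, 16 and 10 against 50, 32 and 39 counts (log2 1.31). Slc31a2, of the copper transporter family, rose by 1.45 and Rap2b, a small GTPase, by 1.38 on the log2 scale.

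The 7 higher genes with 300 or more counts included Apod and Pwp1, given above, and 3 more named here. Inpp5f, a phosphoinositide phosphatase of endosomes, gave 21, 36 and 37 counts in the control and 66, 70 and 72 in the shLarp1 columns (log2 1.06, 0.71 to 1.43). Ube2f, which conjugates NEDD8 to cullins, gave 29, 35 and 36 against 66, 81 and 69 (log2 1.03, 0.68 to 1.39). Gp1bb gave 146 counts in the control and 292 in the shLarp1 sum (log2 0.92, 0.63 to 1.21).

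Many of the lower genes had no standard symbol. Of the 217 genes that fell, 67 had no gene symbol, 40 had only a provisional one (Gm or Rik) and 5 had one named after a clone, which left 105 with a standard symbol. Of the 53 that rose, 44 had a standard symbol. Lower calls made up 10.5% of the 636 members without a symbol and 10.5% of the 277 long non-coding RNAs, against 1.38% of the 7042 protein-coding members. The medians were -0.41, -0.36 and 0.03.

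The ratio of IP to input, another readout of the same genes, separated most of these calls. Members were put in a low class where the log2 IP to input ratio, as the mean of both viruses, was under -2 (692 genes), in a zero class where all input columns had 0 counts (1126 genes), and otherwise in the class recovered in IP and input (6391 genes). The low class rests in part on the IP counts compared here. Of the 217 lower genes, 62 were low and 113 zero, that is 175 in all. In the class recovered in both, 39 genes rose (0.61%) and 42 fell (0.657%), and the median was 0.06. In the low class 5 rose and 62 fell (8.96%) with a median of -0.41 (log2 -0.405), and in the zero class 9 rose and 113 fell (10%) with a median of -0.39. The recovered class took 71.5% of IP counts in the control and 76.1% with shLarp1, while the low class went from 11.4 to 9.07% and the zero class from 15.6 to 13.2%. What makes a gene low or absent in input, and its part in the lower ratios, was not tested.

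**Figure D3:**
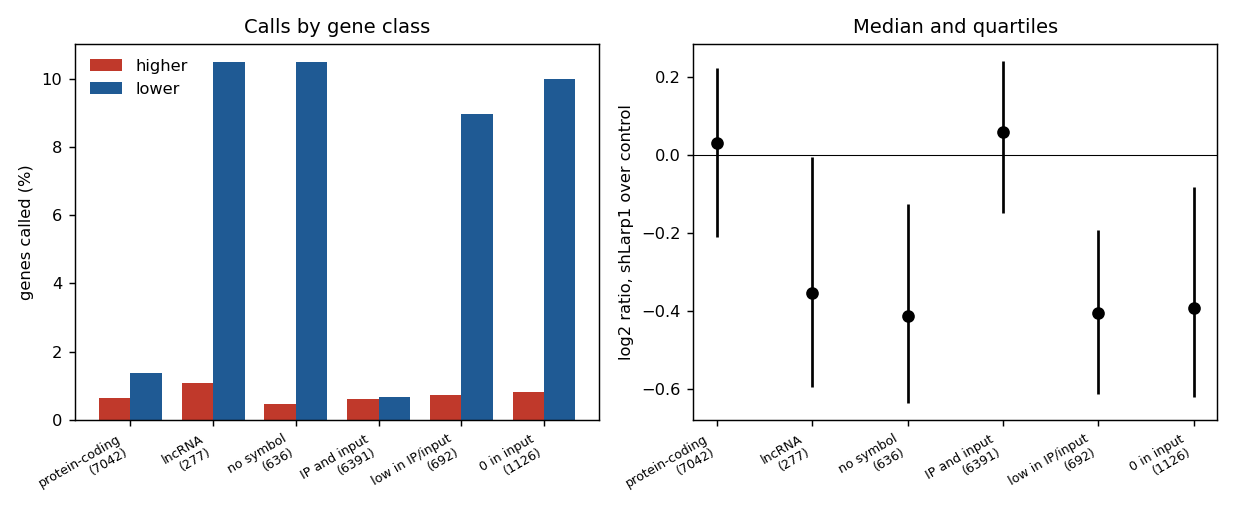
Percent of genes called higher or lower (left) and median log2 ratio with quartiles (right) for gene types and for the 3 classes by IP and input. Lower calls are 8.96 and 10% in the low and zero classes and 0.657% in the class recovered in both.

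**Figure D4:**
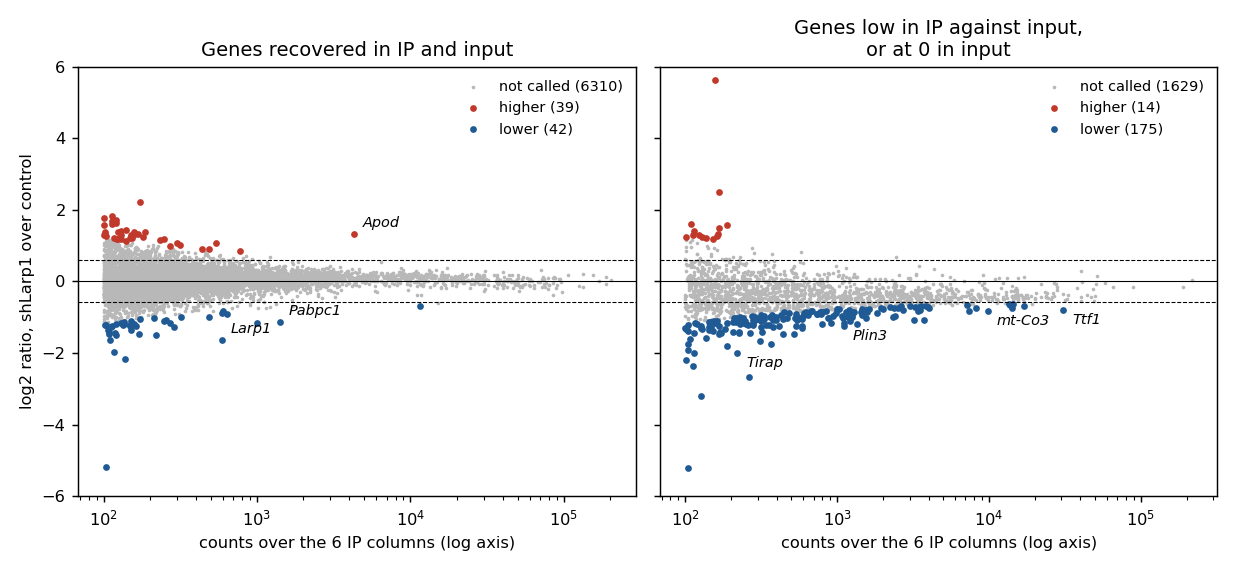
Log2 ratio (shLarp1 over control) against counts over the 6 IP columns on a log axis, 1 point per gene, in separate panels by IP to input class, with called genes colored. At 1000 or more counts Apod is the single higher call, and 53 of the 56 lower calls lie in the low and zero classes.

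At 1000 or more counts, where counting error is small, 1918 genes gave 1 higher and 56 lower calls. Of the 56, 24 were low, 29 were zero and 18 had no symbol. In the class recovered in both, 3 of 1312 fell: Pabpc1, mt-Co2 and 1 of 2 genes that carry the symbol Ptp4a1. That gene had 212, 236 and 232 counts in the control and 3, 163 and 158 in the shLarp1 columns, and the other Ptp4a1 gene had 0, 0 and 0 against 156, 0 and 0. The counts moved from one identifier to the other in 1 column, so both values depend on which identifier took the counts of that column. The deep calls outside that class included Ttf1, a transcription termination factor of RNA polymerase I, with 19125 and 11622 counts (log2 -0.80, log2 IP to input -3.28), Gfod2 with 8690 and 5475 (log2 -0.75), Decr2, a peroxisomal reductase, with 2499 and 1257 (log2 -1.07), and Olfr655, named as an odorant receptor, with 10235 and 6751 (log2 -0.68).

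In the class recovered in IP and input, 42 genes fell, of which examples follow. Mapk8 (JNK1), a stress kinase that acts in injured axons, gave 54, 66 and 64 counts in the control and 38, 25 and 24 in the shLarp1 columns (log2 -1.16, -1.55 to -0.79). The groups do not overlap. It was 1 of 2 lower genes among 25 members of the JNK and axon degeneration list (median 0.03); the other, Tirap, is given below. Sec63, a subunit of the ER translocon, gave 139, 135 and 133 against 79, 80 and 71 (log2 -0.91, -1.15 to -0.67). Dcun1d5, of the neddylation machinery, gave 56, 59 and 45 against 20, 19 and 21 (log2 -1.50). Pip5k1a, which makes the membrane lipid PIP2, gave 26, 28 and 38 against 12, 5 and 8 (log2 -1.96). Prkra, an activator of the kinase PKR, gave 85 and 33 counts in sum (log2 -1.45), and Syn3, a synapsin, 200 and 87 (log2 -1.28).

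Plxnc1, a semaphorin receptor listed among sensory neuron subtype markers, gave 30, 34 and 28 counts against 14, 15 and 14 (log2 -1.18, -1.74 to -0.64). It was the one call among 15 subtype members, whose median was -0.17. Rbmxl1, an RNA-binding retrocopy of Rbmx, had 28, 26 and 49 counts in the control and 0, 0 and 0 in the shLarp1 columns. Set against 3 counts for the summed shLarp1 columns, the level was 36.4-fold lower, a value that depends on that floor. The counting interval itself ends at a log2 ratio of -4.86, a smaller fold than the one from the floor. Rbmx itself went from 54 to 84 counts (log2 0.56, 0.05 to 1.08), and whether reads of the pair were told apart is not given in the sources used here. In the low class, Plin3, a coat protein of lipid droplets, gave 246, 257 and 262 against 134, 109 and 98 (log2 -1.25, -1.44 to -1.06), and Tirap, an adaptor of Toll-like receptors, gave 63, 65 and 45 against 17, 7 and 22 (log2 -1.99, -2.50 to -1.52). Vmn1r1, named as a vomeronasal receptor, gave 114 and 13 counts in sum (log2 -3.22).

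Most mRNAs of the mitochondrial genome had lower values with shLarp1. Of 12 members among 13 mRNAs, 4 fell (2.64% of all members did) and none rose, the median was -0.56, and 11 of 12 lay below the median of all genes. The mRNA mt-Co3, for a cytochrome oxidase subunit, gave 1989, 2094 and 2021 counts in the control and 1225, 1212 and 1232 in the shLarp1 columns, which do not overlap (log2 -0.82, -0.88 to -0.76). The other calls were mt-Atp6 (log2 -0.82), mt-Co2 (-0.68) and mt-Nd1 (-0.67). The exception was mt-Nd6, the mRNA of the other strand, with 436 and 468 counts (log2 0.02, -0.17 to 0.21). Of the other mitochondrial RNAs, the large ribosomal RNA mt-Rnr2 went from 8606 to 5861 counts (log2 -0.64) and the tRNA mt-Te from 411 to 175 (log2 -1.31). Mitochondrial mRNAs are translated on mitochondrial ribosomes, which carry no Rpl22, and their share of IP counts went from 0.400 to 0.265%. Only 3 of the 12 were recovered in both IP and input.

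The nuclear-encoded partners of these mRNAs did not follow them. Of 79 nuclear mRNAs of oxidative phosphorylation none was called, the median was 0.09 (log2 0.085), and 71 of 79 lay above the median of all genes. Intervals were wholly above 0 for 44 and wholly below for 4, against 20.1% and 24.4% of all members, shares not matched for depth. Their share of IP counts was 9.07% in the control and 9.91% with shLarp1. The 78 list members recovered in both IP and input had a median of 0.08 (log2 0.082). That is close to the median of all 567 recovered members with 3000 or more counts, 0.08 (log2 0.077), so the list did not stand out from deep recovered genes. Cox6c gave 44698 and 49904 counts (log2 0.08), Ndufa4 40474 and 46198 (log2 0.11) and Atp5c1 2486 and 3181 (log2 0.27, the highest of the list). None of 78 mitochondrial ribosomal protein mRNAs was called (median 0.06). Of 20 glycolytic mRNAs none was called, 17 lay above 0 and the median was 0.13. Gapdh gave 4420, 4428 and 4440 counts against 5606, 5772 and 5950 (log2 0.30, 0.27 to 0.33).

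**Figure D5:**
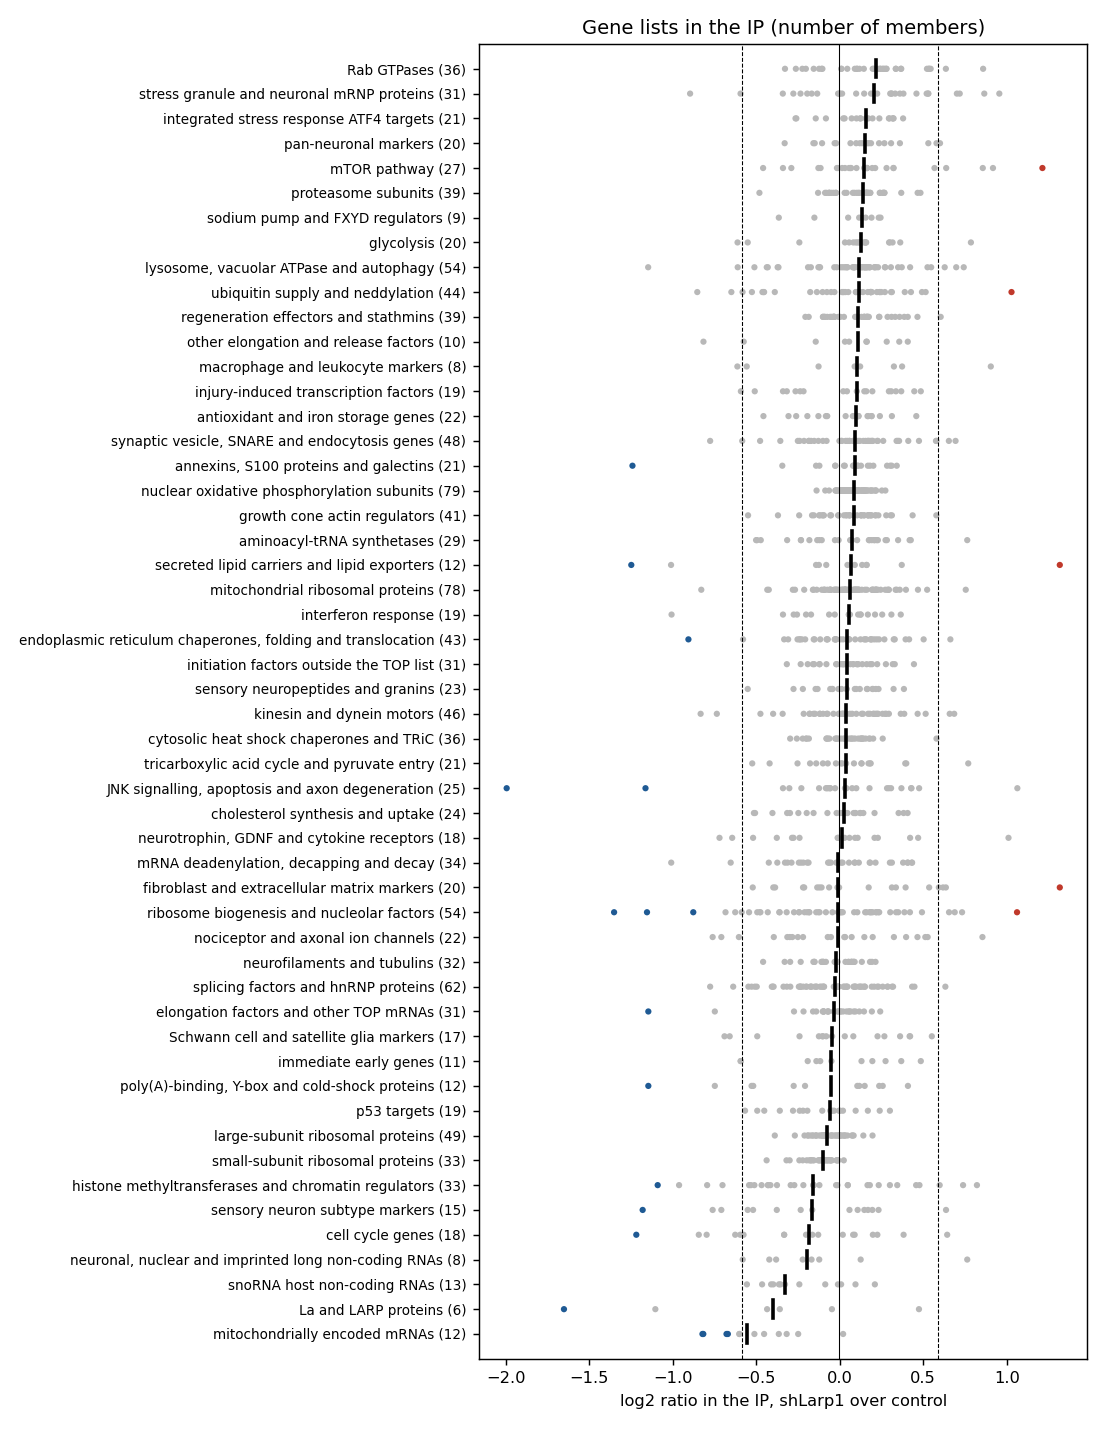
Log2 ratio (shLarp1 over control) of the members of each gene list with 5 or more members, 1 dot per gene, with the list median as a black bar and the median of all genes as a thin line. Dashed lines mark 1.5-fold. Mitochondrially encoded mRNAs have the lowest median, -0.56, and most list medians lie between -0.2 and 0.2.

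Regeneration genes had no call in either direction. Over 39 effectors of the injury response the median was 0.11, with 19 intervals wholly above 0 and none wholly below. Sprr1a, a small proline-rich protein induced by axotomy, gave 1186, 1199 and 1235 counts in the control and 1684, 1680 and 1644 in the shLarp1 columns (log2 0.39, 0.32 to 0.45). Gap43, the growth cone protein, was at 0.23 (log2 0.235, 0.17 to 0.30), Stmn2, a regulator of microtubules in axons, at 0.16 (0.14 to 0.19), and Plaur, the urokinase receptor, at 0.60. Of 19 injury transcription factors the median was 0.10. Jun gave 231, 231 and 229 against 349, 334 and 341 counts (log2 0.49, 0.34 to 0.63), and Sox11 was at 0.45 (0.18 to 0.71). Atf3, the classic axotomy factor, was at 0.02 (-0.09 to 0.13), Egr1 at -0.59 and Stat3 at -0.32. With the columns apart and intervals above 0 but under 1.5-fold, Jun and Sprr1a are small differences between these libraries.

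Neuropeptides showed a similar range with no call among 23 (median 0.04). Gal, galanin, induced by nerve injury, gave 2485, 2400 and 2405 counts in the control and 3376, 3355 and 3346 in the shLarp1 columns (log2 0.38, 0.34 to 0.43). Npy, neuropeptide Y, gave 1981, 1922 and 1784 against 2575, 2497 and 2458 (log2 0.32, 0.27 to 0.37), and Calca, which encodes CGRP, was at 0.20 (log2 0.195). Tac1, the substance P precursor, was at -0.55 (-0.94 to -0.17) from 137 counts. For Gal, Npy and Calca the shLarp1 columns lay above all control columns, and for Tac1 below.

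Lists of membrane traffic and protein turnover had medians slightly above that of all genes, -0.01. Recovered members in general also lay above it, at 0.06, or at 0.08 with 3000 or more counts. The recovered members of the Rab, lysosome and proteasome lists had medians of 0.20, 0.12 and 0.14, and those of ER folding 0.04. Rab GTPases and their regulators had the highest median of the lists with 10 or more members, 0.22 over 36 members, with 15 intervals wholly above 0, none wholly below and no call. Rab5a, of early endosomes, gave 69, 76 and 78 counts against 119, 116 and 107 (log2 0.53, 0.29 to 0.78), and Rab15 gave 105, 102 and 111 against 164, 167 and 160 (log2 0.54). Lysosome and autophagy mRNAs had a median of 0.12 over 54 members and no call. The 39 proteasome subunits had a median of 0.14, 18 intervals wholly above 0 and 1 below, and no call. Psmb3, a core subunit, gave 5971 and 7610 counts (log2 0.27). Of 44 ubiquitin system mRNAs Ube2f alone was called (median 0.12). Ubb, a polyubiquitin gene, was at 0.27. Integrated stress response mRNAs had a median of 0.16 over 21 members and no call, with Atf4 at 0.17 and Ddit3 at 0.07. Of 43 mRNAs of protein folding in the ER, Sec63 alone was called (median 0.04).

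Neither list of cytoskeleton mRNAs had a call. Actin regulators had a median of 0.08 over 41 members, with the actin-sequestering thymosins Tmsb10 at 0.22 (log2 0.215; 59995 and 73735 counts) and Tmsb4x at 0.19. Tubulins, neurofilaments and their partners had a median of -0.02 over 32 members, which turns to 0.04 with total counts, with Tuba1a at -0.10 and Nefl at -0.16 (-0.21 to -0.11). Axonal transport motors had a median of 0.04 over 46 members and no call. Annexins, S100 proteins and galectins went from 2.84 to 3.22% of IP counts, with S100a10, a partner of annexin A2, at 0.17 and Lgals1, galectin-1, at 0.11. S100a2 fell in that list (404 to 181 counts, log2 -1.24, low class). Ion channels (22 members, median -0.01), receptors (18, median 0.01) and pumps (9, median 0.13) had no call.

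The list of histone methyltransferases and other chromatin regulators had a median of -0.16 over 33 members, with none higher and 1 lower. Rcor1, Bptf and Prdm2, given above as called rises, are not in that list. Ehmt2, an H3K9 methyltransferase, fell (191 to 95 counts, log2 -1.09, low class). Of 18 cell cycle members Mcm10 fell (235 to 107 counts, log2 -1.22, low class). The 25 chromatin members recovered in both IP and input had a median of -0.02.

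Neuronal markers were detected throughout. All 20 pan-neuronal markers were members, summing to 15180 to 15420 CPM in the control and 16740 to 16890 in the shLarp1 columns, and none was called (median 0.15). Uchl1, a neuronal ubiquitin hydrolase, gave 10276, 10199 and 10327 against 13512, 13402 and 13433 counts (log2 0.31, 0.29 to 0.33). Of the 20 neuronal markers 19 were above input, with a median log2 IP to input ratio of 1.31 (log2 1.315; highest 2.61 for Nefl) and Map2 the exception at -0.42. The 17 glial members were divided, 9 above and 8 below input (median 0.08), and of the 20 fibroblast members 8 were above and 12 below (median -0.46; lowest -2.60 for Fn1, while Apod was at 0.80). Immune markers summed to 186 to 187 against 194 to 210 CPM, endothelial and mural markers to 185 to 215 against 168 to 190, and erythrocyte and muscle markers to 12 or less with either virus. Of 3 epithelial members Grhl2, a transcription factor of epithelia, fell (371 to 167 counts, log2 -1.23, low class). Like the neuronal sum, many regeneration and peptide mRNAs had higher values with shLarp1. The neuronal and regeneration lists share members such as Stmn2 and Stmn3, so they are not separate readouts. The part of the neuronal sum in the values of regeneration and peptide mRNAs was not tested.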

How the data were processed

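Per the labels' protocols, RNA of HA immunoprecipitates was made into nanopore libraries by cDNA-PCR with barcodes and without molecular identifiers. The authors deposited estimated counts per gene, as whole numbers that differ in total between the viruses. Per the submitters' processing notes, the tools were minimap2 and Salmon and the builds GRCm39 and mm39. Tool versions, annotation, filters and strandedness: not given in the sources used here.

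Counts were summed over the 3 columns of each virus, which departs from treating them as replicates, and scaled by TMM (edgeR 4.0.16, R 4.3.3) within the 6 IP columns. Log2 ratios have exact (Clopper-Pearson) 95% intervals, which cover counting error only. With 1 sample per virus no p-value compares the conditions. Gene symbols were looked up by identifier, and gene types and start windows from RefSeq (GRCm38.p6), matched by symbol or synonym for 7370 members. The IP to input ratio uses TMM over the 4 summed groups with 0.5 counts added.

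The members and the 55 gene lists were chosen with earlier results of these data known, and some lists share members. Named genes are Larp1, Rpl22, the 25 largest calls per direction with standard symbols and columns apart, the 10 genes with most counts, and per list the called members, the 3 deepest, the highest and the lowest. Genes outside this rule (such as Larp1b, Ybx1, G3bp2, Sprr1a, Sox11, Ttf1, Inpp5f, Gp1bb, Ptp4a1 and Rbmx) were added after their values were seen. A few genes that the rule names are not reported here. Of the lists, those of translation elongation and release, sterol synthesis, lipid carriers, antioxidants, chaperones, citric acid cycle, p53 targets, interferon targets, immediate early genes, vesicle proteins and long non-coding RNAs gave no call beyond Apod and Plin3. The last of these lists had 8 members, whereas 29 of all 277 long non-coding RNAs fell. Syn3, which fell, is not in the vesicle list. The procedure was tested on simulated data. Alternatives were other scalings, filters, fold limits, tests on columns (edgeR quasi-likelihood; DESeq2 1.42.0, with Benjamini-Hochberg adjustment) and leaving out columns or gene classes.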

Additional observations from a re-analysis of the deposited data

How the results depend on the processing

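Larp1 stayed lower past its limit under each alternative run. The counts of higher and lower genes (53 and 217) became 322 and 523 with no count filter, 7 and 123 at 300 counts or more, 116 and 325 with filterByExpr, 234 and 773 with a smaller fold limit, 10 and 26 with 2-fold, and 1646 and 1999 where the interval only had to exclude no change. Treating the columns as replicates gave 1124 and 1569 with edgeR's quasi-likelihood test and 504 and 969 with DESeq2, at an adjusted p under 0.05; such tests measure only the spread between columns. Without genes low in IP against input or at 0 in input, 39 and 42 remained, all of them among the main calls. Scaling by total counts gave 72 and 154, by upper quartile 72 and 151, and by DESeq2 size factors 57 and 198. Leaving out 1 column gave 44 to 56 higher and 174 to 205 lower genes. Without the 129 genes whose columns differ within a virus, an alternative chosen after seeing the data, 45 and 206 were called. Outside the mitochondrial genome the ribosomal protein share was 21.06% and 20.62%. No call of a named gene reversed direction under any of these alternatives. Ratios close to 0 can change sign with scaling by total counts or upper quartile, which move the median of all genes up by 0.06.

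With the replicate number as a block the edgeR test called 1106 higher and 1563 lower genes. The correlations of columns with the same number were 0.04, -0.03 and -0.01, so the numbers do not pair the samples. Depth limits the shallow genes: of 3839 with fewer than 300 counts, 46 rose and 99 fell.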
